A study of Mus musculus with 6 samples.

Results

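The collagen chain genes are the genes whose symbols consist of Col, a type number, the letter a and a chain number, and 44 of the 24062 genes counted in this study met that description. They encode chains of 27 collagen types and were divided into 9 genes of the fibrillar types I, II, III, V and XI, 8 genes of the basement membrane types IV, XV and XVIII, and 27 genes of the other 19 types, which include the minor fibrillar chains *Col24a1* and *Col27a1*. Their transcripts were measured by RNA sequencing in 2 fractions of CD31+ckit+ cells sorted from the aorta-gonad-mesonephros region (AGM) of mouse embryos at embryonic day 10.5, with 3 libraries per fraction. CD31 marks endothelial cells and the hematopoietic cells that emerge from them, and ckit marks hematopoietic progenitors. All embryos were of the C57BL/6JOlaHsd strain by label and carried Gata2Venus, in which the Venus fluorescent protein is made from the transcript of *Gata2*, a transcription factor needed for hematopoietic stem cells, and the study's methods give 1 Venus allele (G2 V/+). The fractions differed in Venus fluorescence, intermediate in the one labelled G2Vi (Vmed) and high in the one labelled G2Vh (Vhigh). No treatment was applied. Venus stands for *Gata2* expression and not for a cell type, each library holds cells of dissociated AGM tissue, and the number of embryos behind a library is not given in the sources used here. The tissue had been dissociated with collagenase, an enzyme that cuts collagen protein, whereas the values below are transcript counts.

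Collagens are extracellular proteins built from chains that wind around each other in a long helix. Fibrillar collagens form the fibers of interstitial matrix and are made mainly by fibroblasts and other mesenchymal cells. Basement membrane collagens form or bind the sheet of matrix under endothelium and epithelium, and endothelial cells are a known source of type IV collagen. In the embryonic aorta, hematopoietic cells arise from endothelium that rests on such a sheet with mesenchyme beneath it, and blood cells themselves are not known as major collagen producers.

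Between 8296831 and 12035206 reads were counted on genes per library, so that 3 counts, the smallest number taken as detection here, correspond to 0.249 to 0.362 CPM, counts scaled to a common library total. The libraries differed in how many genes they held, from 10427 genes with at least 1 count in Vhigh replicate 1 to 18460 in Vhigh replicate 2, and these 2 libraries stood apart in the collagen genes as well. At least 3 counts were present for 31, 41 and 28 of the 44 collagen genes in Vmed replicates 1, 2 and 3, and for 18, 43 and 24 in Vhigh replicates 1, 2 and 3. In Vhigh replicate 1, 23 of the 44 genes had no count, against 0 in Vhigh replicate 2. *Gata2* itself, which checks the sort by Venus, had 50.3, 29.4 and 68.4 CPM in Vmed and 39.2, 82.5 and 142.2 CPM in Vhigh, higher in Vhigh in replicates 2 and 3 but not in replicate 1. *Pecam1*, which encodes CD31, had 118 to 569.5 CPM in Vmed and 160 to 436 CPM in Vhigh, and *Kit* had 59.1 to 207.5 CPM in Vmed and 254.5 to 521 CPM in Vhigh, so that both sorting markers were present in every library. The ribosomal RNA precursor *Rn45s* ranged from 8873 to 104875 CPM and was highest in replicate 3 of both fractions.

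Summed over all 44 genes, collagen transcripts made up 0.130, 0.283 and 0.663% of the counts in Vmed replicates 1, 2 and 3 and 0.0511, 0.0908 and 0.194% in Vhigh replicates 1, 2 and 3. The Vhigh library was thus the lower one in each same-numbered pair, by 2.54-fold in replicate 1, 3.12-fold in replicate 2 and 3.42-fold in replicate 3. The ranges of the fractions overlapped (exact permutation test on log2 values, two-sided and without use of the pairs, p = 0.2). In bulk libraries, fewer cells of a collagen-producing type and less collagen RNA per cell cannot be told apart. The 3 classes differed in how they divided this total. Fibrillar collagens summed to 783, 1619 and 3887 CPM in Vmed and to 315, 342 and 276 CPM in Vhigh. Every Vhigh library was below every Vmed library, the Vhigh libraries lay close together, and the Vmed libraries spread widely (2096 ± 1606 CPM against 311 ± 33.3 CPM, SD, n = 3 each). The mean of the log2 sums differed by -2.46 (Vhigh minus Vmed; p = 0.1 in an exact two-sided permutation test, which 3 libraries against 3 cannot go below).

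**Figure D1:**
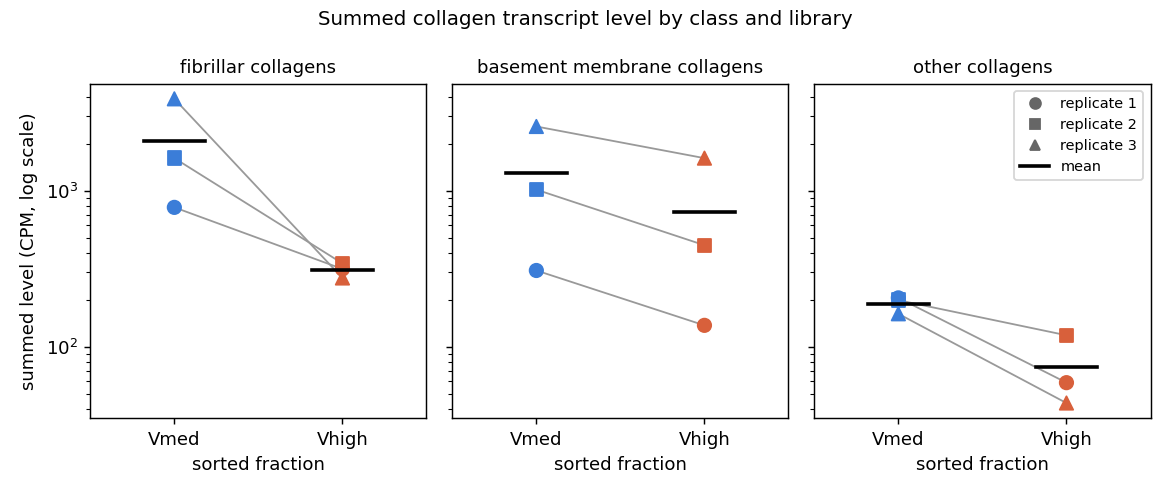
Summed level of the fibrillar, basement membrane and other collagen genes in each of the 6 libraries, in CPM on a log scale; symbols mark the replicate number, gray lines join same-numbered libraries and black bars are means. Fibrillar sums were 783 to 3887 CPM in Vmed and 276 to 342 CPM in Vhigh, and basement membrane sums were highest in replicate 3 of both fractions.

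Basement membrane collagens summed to 308, 1017 and 2584 CPM in Vmed and to 137, 448 and 1619 CPM in Vhigh. Here the fractions overlapped, and in both of them replicate 3 had the highest sum and replicate 1 the lowest. Within same-numbered pairs the Vhigh sum was lower each time, by 2.25-fold, 2.27-fold and 1.60-fold. The mean of the log2 sums differed by -1.01 (exact permutation test, two-sided, p = 0.5). That test does not use the pairs, so its p-value does not measure the differences within them. The other collagens were low, at 206, 199 and 163 CPM in Vmed and 58.8, 118 and 43.5 CPM in Vhigh, again without overlap (difference of the mean log2 sums -1.49; exact permutation test, two-sided, p = 0.1). The ratio of fibrillar to basement membrane collagen CPM was 2.54, 1.59 and 1.504 in Vmed and 2.30, 0.76 and 0.17 in Vhigh. Vhigh replicate 1 lay within the Vmed range of this ratio, whereas replicates 2 and 3 lay below it (exact permutation test on the log2 ratio, two-sided, p = 0.3).

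Each gene was then compared between the fractions with edgeR's quasi-likelihood test, which gave the log2 fold changes (Vhigh over Vmed), their standard errors (SE) and the p-values of single genes below. Of the 44 genes, 31 had enough counts to be tested, among them all 9 fibrillar, 7 of 8 basement membrane and 15 of 27 other genes. The filter keeps a gene that is high in only 1 fraction, so these 31 are not a sample of all collagen genes. None of the 31 passed an adjusted p of 0.05, as was true of all 12688 genes tested (0% called). At an unadjusted p under 0.05, 3 collagen genes were lower in Vhigh, namely *Col1a1*, *Col1a2* and *Col3a1*, and 0 were higher, where 1.17% and 0.867% of all genes tested were lower and higher. Over all 31 genes, 27 had a log2 fold change below 0 and 4 above 0 (*Col2a1*, *Col11a2*, *Col6a6* and *Col19a1*, named after their values were seen), while 51.1% of all genes tested were below 0. The median log2 fold change was -1.39 for the collagen genes and -0.02 for all genes tested. By class, the median was -1.52 for fibrillar, -0.99 for basement membrane and -1.39 for other collagens, with 7 of 9, 7 of 7 and 13 of 15 genes below 0.

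The 3 Vmed and 3 Vhigh values did not overlap for 6 collagen genes, all lower in Vhigh, where 4.71% of all genes tested were separated in that direction. These were the fibrillar genes *Col1a1*, *Col1a2*, *Col3a1* and *Col5a2* and the genes *Col6a3* and *Col23a1*. Neither *Col6a3* nor *Col23a1* was detected in every Vhigh library. Both passed the count filter through the Vmed libraries, so their separation is no independent result. In the opposite direction 0 collagen genes were separated, against 4.15% of all genes tested. A lower value in Vhigh in each of the 3 same-numbered pairs was found for 15 of the 31 genes, against 15.4% of all genes tested. The calls depended on the test. *Col1a1*, *Col1a2* and *Col3a1* passed an adjusted p of 0.05 in the likelihood ratio test with the replicate number as a block (adjusted p = 0.0013, 0.013 and 0.043), in DESeq2's Wald test (0.0013, 0.0016 and 0.047), and in the quasi-likelihood test without a filter on low counts (1.32e-05, 3.26e-04 and 0.0093). In all genes, the shares called lower by these tests were 0.378%, 0.248% and 0.120%. The likelihood ratio test without the block called *Col1a1* and *Col1a2* only (adjusted p = 0.022 and 0.012), beside 0.0788% of all genes. The quasi-likelihood test called none with that block as well (adjusted p = 0.63 for *Col1a1*), but 6 collagen genes had an unadjusted p under 0.05, against 2.36% of all genes. The genes added were *Col4a2*, *Col5a1* and *Col5a2* (unadjusted p = 0.026, 0.044 and 0.018, adjusted p = 0.99 for each).

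**Figure D2:**
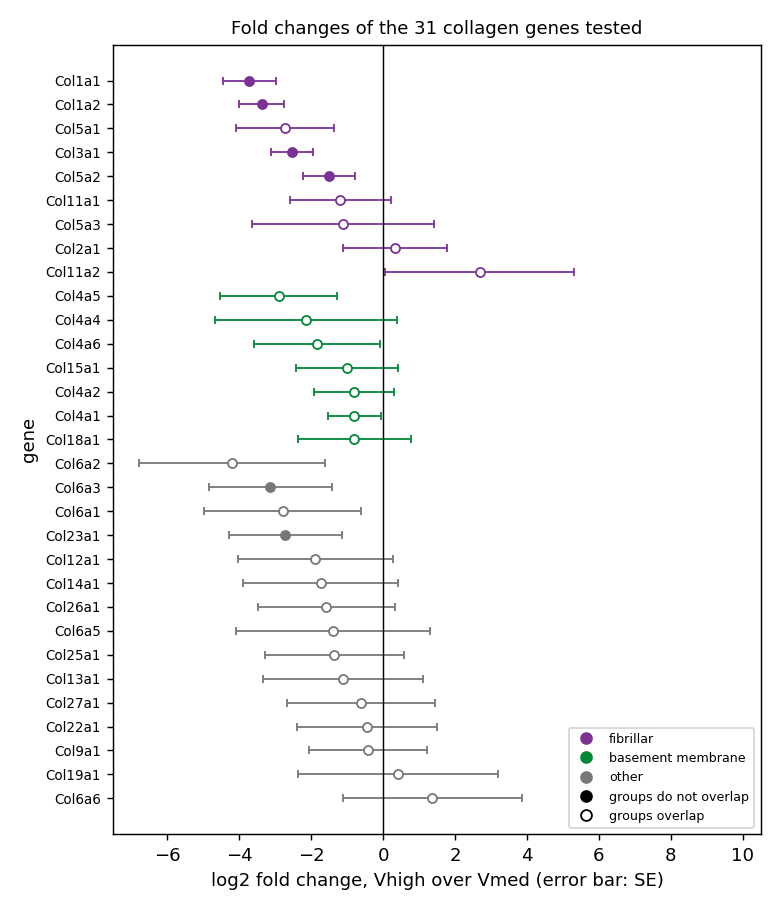
Log2 fold changes (Vhigh over Vmed) with their standard errors for the 31 collagen genes tested, colored by class; filled points mark the 6 genes whose 3 Vmed and 3 Vhigh values do not overlap. In this plot 27 of 31 points lie below 0, and the bars of the type I and type III chains are among the shortest.

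Type I collagen, the main fiber protein of connective tissue, is assembled from the products of *Col1a1* and *Col1a2*. *Col1a1* (GRCm38 chr11:94936224-94953042, plus strand) had 125, 396 and 1414 CPM in Vmed and 30.4, 67.9 and 56.0 CPM in Vhigh. Its log2 fold change of -3.72 (SE 0.74) was the lowest among the fibrillar genes tested, with an unadjusted p of 0.0011 and an adjusted p of 0.96. *Col1a2* (chr6:4504814-4541544, plus strand) had 176, 553 and 818 CPM in Vmed and 54.9, 77.7 and 21.8 CPM in Vhigh. Both chains were highest in Vmed replicate 3, and in Vhigh both were highest in replicate 2. *Col1a2* had a log2 fold change of -3.38 (SE 0.63, unadjusted p = 6.2e-04, adjusted p = 0.96). Without Vmed replicate 3, the log2 fold change of *Col1a1* was the smallest of any library left out, at -2.37, and that of *Col1a2* ranged from -3.78 to -2.85 over the libraries left out in turn.

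Type III collagen, which forms fibers together with type I in vessels and soft tissue, consists of *Col3a1* chains only. *Col3a1* (chr1:45311538-45349706, plus strand) had 348, 497 and 1275 CPM in Vmed and 179, 98.98 and 89.2 CPM in Vhigh. It had the highest mean CPM of the fibrillar genes in both fractions, with a log2 fold change of -2.53 (SE 0.59, unadjusted p = 0.0022, adjusted p = 0.9998). Promoter stretches of 2 of these 3 genes are shown, since these chains had the lowest p-values among the collagen genes. The *Col3a1* stretch comprises the 250 bases before the transcription start (chr1:45311288-45311537, plus strand). The *Col1a2* stretch is the longest part of the 250 bases before its RefSeq start that no annotated exon of the gene covers (chr6:4505370-4505492, plus strand). It ends 126 bases before that start, so the bases next to the start are not shown, and it lies within the gene as annotated. Sequences are from RefSeq (GRCm38.p6) and run 5′ to 3′, with capitals at matches, on either strand, to the TATA box letters TATAAA, to the box known as CCAAT, or to the GC box letters GGGCGG.
Col3a1: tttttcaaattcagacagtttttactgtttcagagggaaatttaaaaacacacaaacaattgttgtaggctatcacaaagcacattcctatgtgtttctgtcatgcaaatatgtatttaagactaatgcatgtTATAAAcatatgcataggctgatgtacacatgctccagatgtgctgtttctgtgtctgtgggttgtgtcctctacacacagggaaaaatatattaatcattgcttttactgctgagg
Col1a2: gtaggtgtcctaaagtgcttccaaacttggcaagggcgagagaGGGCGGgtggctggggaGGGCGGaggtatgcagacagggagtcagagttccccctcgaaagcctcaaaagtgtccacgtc
The *Col3a1* stretch holds 1 TATA box match and neither of the other motifs, with a GC content of 35.2%, and the *Col1a2* stretch holds 2 GC box matches, with a GC content of 59.3%. Promoter windows of 300 bases, from 250 before to 50 after the start, were at hand for 35 of the 44 collagen genes. The window of *Col1a2* also held a CCAAT match, which is not within the stretch shown. The TATA box letters occurred in 14.3% of these 35 windows and in 13.6% of all 32851 windows, the box CCAAT in 34.3% and 37.4%, and the GC box letters in 62.9% and 35.7%. Each collagen gene entered with 1 window, its first, whereas the share over all windows counts every window, and a gene may have more than 1. The shares are thus not of the same unit. These matches describe the letters only.

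Type V collagen joins type I fibers and sets their width. *Col5a2*, which lies 24614 bases from *Col3a1* in tail to tail orientation, had 96.7, 126 and 185 CPM in Vmed and 12.01, 60.3 and 76.9 CPM in Vhigh. The fractions did not overlap, with a log2 fold change of -1.52 (SE 0.72, adjusted p = 0.9998; exact permutation test, two-sided, p = 0.1). Its partner chain *Col5a1* had 11.3, 32.1 and 133 CPM in Vmed and 0.28, 17.5 and 11.4 CPM in Vhigh. Vhigh replicate 2 lay above Vmed replicate 1, so these fractions overlapped (log2 fold change -2.72, SE 1.37). *Col11a1*, a chain of the fibrils of cartilage and of some other tissues, was low in every library, at 6.75 to 39.3 CPM in Vmed and 4.97 to 10.7 CPM in Vhigh. The remaining fibrillar genes, *Col2a1*, *Col5a3* and *Col11a2*, did not exceed 27.9 CPM, the value of *Col2a1*, the chain of cartilage collagen, in Vhigh replicate 1.

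**Figure D3:**
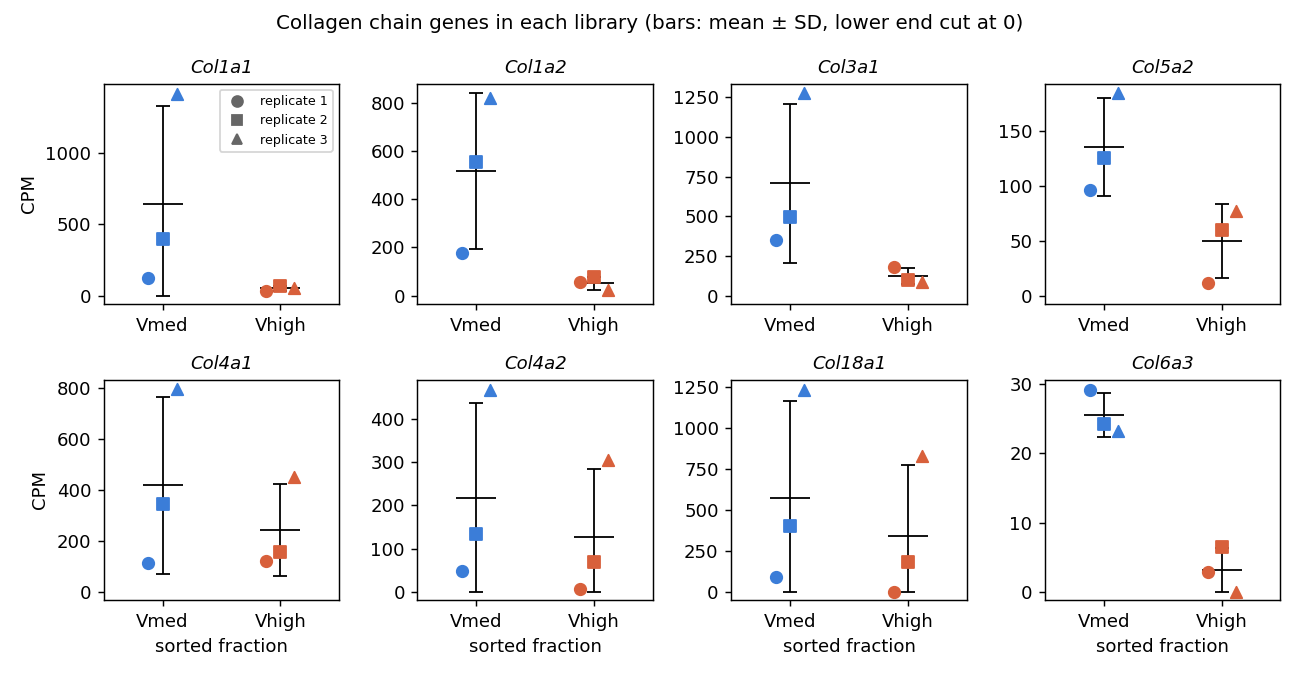
CPM of 8 collagen genes in each library, with mean and SD (n = 3, the lower end cut at 0); symbols mark the replicate number. In the upper row no Vhigh point of Col1a1, Col1a2, Col3a1 or Col5a2 reaches the lowest Vmed point, while Col4a1, Col4a2 and Col18a1 overlap and are highest in replicate 3 of both fractions.

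Mesenchymal and mural markers, a list of 16 genes all present in the files, were set beside these values. Of the 13 tested, 12 had a log2 fold change below 0, where 51.1% of all genes tested did, and 0 passed an adjusted p of 0.05. That direction was not particular to this list. It was also found for 11 of 12 endothelial, 10 of 10 macrophage and 5 of 8 megakaryocyte markers tested, but for 0 of 12 hematopoietic markers. The summed level of the mesenchymal and mural markers was 439 to 1151 CPM in Vmed and 120 to 326 CPM in Vhigh. In Vmed, the marker sum was 1151, 912 and 439 CPM in replicates 1, 2 and 3, opposite in order to the fibrillar sums, and in Vhigh it was 307, 326 and 120 CPM, in the same order as the fibrillar sums. None of the 16 was at 0 in all 6 libraries, and between 1 and 4 were at 0 per Vmed library and between 1 and 7 per Vhigh library. Among the most abundant of them, *Acta2*, a smooth muscle actin, had 449, 473 and 245 CPM in Vmed and 119, 169 and 86.6 CPM in Vhigh, and the fibroblast receptor gene *Pdgfra* had 143, 133 and 34.3 CPM in Vmed and 65.7, 47.3 and 2.33 CPM in Vhigh. The part of these markers in the fibrillar difference was not tested.

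Type IV collagen is the network-forming collagen of basement membranes, and its most widespread form combines *Col4a1* and *Col4a2* chains. *Col4a1* had 112, 345 and 795 CPM in Vmed and 122, 157 and 451 CPM in Vhigh. It was higher in Vhigh than in Vmed in replicate 1 and lower in replicates 2 and 3, and its log2 fold change of -0.80 (SE 0.74, adjusted p = 0.9998) was close to the size of its SE. *Col4a2* had 49.0, 133 and 467 CPM in Vmed and 6.75, 69.7 and 304 CPM in Vhigh, lower in Vhigh in 3 of 3 pairs with overlapping fractions (log2 fold change -0.80, SE 1.12). The fold changes of both genes turned positive without Vmed replicate 3, to 0.11 and 0.49, where Vhigh replicate 3 was kept. With the replicate block they were -0.65 (SE 0.33) and -1.47 (SE 0.47). The quasi-likelihood test with that block gave unadjusted p = 0.10 and 0.026 (adjusted p = 0.99 for both). *Col4a1* and *Col4a2* lie head to head on chromosome 8, and their first exons overlap by 22 bases.

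*Col18a1*, whose product is a heparan sulfate proteoglycan of vascular and epithelial basement membranes and the source of endostatin, had the widest fold range of the 6 most abundant collagen genes. It had 90.7, 399 and 1234 CPM in Vmed and 0.0938, 184 and 831 CPM in Vhigh. The lowest of these values is a single count in Vhigh replicate 1, a library in which *Col4a1* had 122 CPM. Both fractions had their highest value in replicate 3, with a log2 fold change of -0.79 (SE 1.57), which was 0.48 without Vmed replicate 3 and -2.37 with the replicate block. *Col15a1*, a related chain found in microvessels and muscle, was lower, at 2.86, 18.6 and 43.5 CPM in Vmed and 8.72, 5.43 and 18.4 CPM in Vhigh. Its log2 fold change of -0.99 became 0.07 without Vmed replicate 3 and was -0.60 with the replicate block.

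The remaining type IV chains are known from more restricted basement membranes, such as those of the kidney, and were scarcer. *Col4a5* had 43.4, 80.5 and 13.3 CPM in Vmed and 0, 17.8 and 2.66 CPM in Vhigh. Only Vhigh replicate 2 reached into the Vmed range (log2 fold change -2.90, SE 1.63, adjusted p = 0.9998). Its head-to-head neighbor *Col4a6*, 1308 bases away on the X chromosome, had 9.38, 28.3 and 32.0 CPM in Vmed and 0, 9.48 and 10.97 CPM in Vhigh (log2 fold change -1.85, SE 1.75). *Col4a3* and *Col4a4*, whose starts lie 71 bases apart on chromosome 1, did not exceed 2.89 and 9.16 CPM, and both had their highest Vmed and their highest Vhigh value in replicate 2.

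The highest libraries of the 2 fractions shared a replicate number more often among the basement membrane genes than among the fibrillar ones. For each of the 8 basement membrane genes, the highest Vmed library and the highest Vhigh library carried the same replicate number, which was replicate 3 for 5 genes and replicate 2 for 3 genes. Among the 9 fibrillar genes this was so for 1, since 8 of them were highest in Vmed replicate 3 while in Vhigh 3, 4 and 2 were highest in replicates 1, 2 and 3. Among the 27 other genes it was so for 16. These counts describe 6 libraries, are not set beside the same count over all genes, and were not tested. They include *Col4a3* and *Col4a4*, which did not exceed 2.89 and 9.16 CPM and were highest in replicate 2. The sum of the endothelial markers was likewise highest in replicate 3 and lowest in replicate 1 of both fractions, although single markers differed. All 12 had at least 1 count in every library, and 12 and 10 had at least 3 counts in all Vmed and in all Vhigh libraries. The sum of the 12 was 1473, 4465 and 6212 CPM in Vmed and 1217, 1582 and 4323 CPM in Vhigh. The most abundant of them, *Emcn*, an endothelial surface sialomucin, did not follow the sum, with 465, 951 and 869.5 CPM in Vmed and 358, 173 and 360 CPM in Vhigh. *Kdr*, an endothelial growth factor receptor and the second most abundant, had 94.9, 499 and 828 CPM in Vmed and 107, 143 and 606 CPM in Vhigh. The part of these markers in the basement membrane values was not tested.

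The make-up of the collagen counts differed as well. *Col1a1*, *Col1a2*, *Col3a1*, *Col4a1*, *Col4a2* and *Col18a1* together took between 69.5% and 90.5% of all collagen counts in each library. The fibrillar share was 60.4, 57.1 and 58.6% in Vmed replicates 1, 2 and 3, although the summed level ranged from 1297 to 6634 CPM there, and 61.7, 37.7 and 14.2% in Vhigh. *Col18a1* alone took 42.9% in Vhigh replicate 3 and 0.0184% in Vhigh replicate 1. Levels per kilobase of exon (RPKM) allow genes to be compared, but their order depends on the exon lengths used. By RPKM, *Col1a1* had the highest mean in Vmed (98.3 ± 104 RPKM, SD, n = 3). It was followed by *Col18a1* (81.8 ± 84.2), *Col3a1* (72.0 ± 50.7) and *Col4a1* (55.9 ± 46.5). In Vhigh the order was *Col18a1* (48.2 ± 62.2 RPKM, SD, n = 3), *Col4a1* (32.6 ± 24.2), *Col4a2* (19.2 ± 23.7) and *Col3a1* (12.5 ± 5.03). Neighbors in both orders differed by less than the larger of their SDs.

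**Figure D4:**
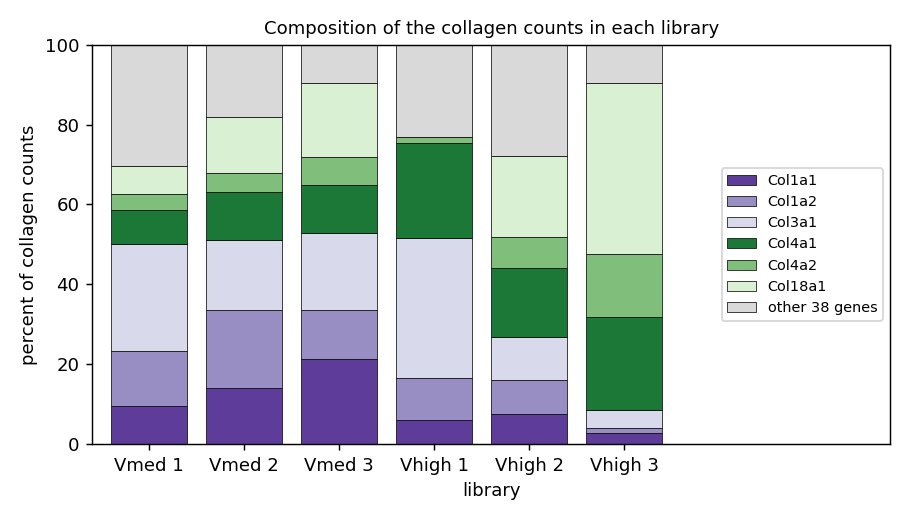
Percent of all collagen counts taken by 6 collagen genes (purple, fibrillar; green, basement membrane) and by the other 38 in each library. The single fibrillar chains vary among the 3 Vmed libraries (Col1a1 from 9.67% to 21.3%) while the share of the whole fibrillar class there is 57.1 to 60.4%, and Col18a1 ranges from 0.0184% to 42.9% among the Vhigh libraries.

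Chains of one trimer were compared by their RPKM ratio within each library. The ratio of *Col1a1* to *Col1a2* was 1.35, 1.35 and 3.27 in Vmed and 1.05, 1.65 and 4.87 in Vhigh. The size of these ratios and which chain is the higher one depend on the exon lengths used (6.56 and 12.4 kb). In CPM, *Col1a2* was the higher chain in replicates 1 and 2 of both fractions. The fold differences of the ratio between libraries do not depend on these lengths, and it was highest in replicate 3 of both fractions. *Col4a1* exceeded *Col4a2* by 2.02, 2.30 and 1.51 in Vmed and by 15.96, 2.00 and 1.32 in Vhigh. Apart from Vhigh replicate 1, the library with the fewest genes, this ratio lay between 1.32 and 2.30 while the level of *Col4a1* itself varied from 112 to 795 CPM. The ratio of *Col5a2* to *Col5a1* was less steady, at 7.56, 3.47 and 1.23 in Vmed and 37.8, 3.05 and 5.98 in Vhigh. In Vhigh replicate 1, *Col5a1* had 3 counts.

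Among the other collagens, type VI forms beaded filaments around cells and near basement membranes. Its chain *Col6a3* had 29.2, 24.2 and 23.2 CPM in Vmed and 2.91, 6.45 and 0 CPM in Vhigh. The Vmed libraries lay close together and none of the Vhigh libraries reached them (log2 fold change -3.14, SE 1.70, adjusted p = 0.9998; exact permutation test, two-sided, p = 0.1). The partner chains of *Col6a3* varied more in Vmed, with 0.23, 20.6 and 20.2 CPM for *Col6a1* and 0, 10.1 and 14.3 CPM for *Col6a2*. In Vhigh these partners did not exceed 5.07 and 1.47 CPM. *Col23a1*, which encodes a transmembrane collagen, had 39.2, 44.5 and 31.5 CPM in Vmed and 0, 12.2 and 6.81 CPM in Vhigh. Like *Col6a3*, it was separated and had an even level in Vmed (log2 fold change -2.72, SE 1.56). As both genes passed the count filter through the Vmed libraries, where they are high, their separation is no independent result. Unlike the type I chains, neither gene was highest in Vmed replicate 3. *Col9a1*, a chain of a collagen that coats cartilage fibrils, went with replicate 1, at 49.4 CPM in Vmed and 38.8 CPM in Vhigh, and did not exceed 11.3 CPM in the other 4 libraries. Of the 8 cartilage and sclerotome markers, the most abundant, *Sox9*, had its highest values in the same 2 libraries, with 176 and 61.3 CPM. The next, *Sox5*, had 69.6 CPM in Vmed replicate 1 but 0.0938 CPM in Vhigh replicate 1, 4 and 6 of the 8 markers were at 0 in these libraries, and the relation was not tested.

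The remaining genes of this class did not exceed 23.9 CPM in any library. In this class 20 of 27 genes were highest in Vhigh replicate 2 among the Vhigh libraries, which is also the library with the most genes detected. Only 10 collagen genes had at least 3 counts in all 6 libraries, 7 of them fibrillar (*Col1a1*, *Col1a2*, *Col2a1*, *Col3a1*, *Col5a1*, *Col5a2* and *Col11a1*) and 3 of the basement membrane class (*Col4a1*, *Col4a2* and *Col15a1*). *Col10a1*, a marker of hypertrophic cartilage, had 3 counts or more in 1 library, Vmed replicate 2 with 9.64 CPM. At these levels a difference between the fractions was not detectable for most genes of the class, with standard errors of 1.56 to 2.78 on the log2 scale for those tested.

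**Figure D5:**
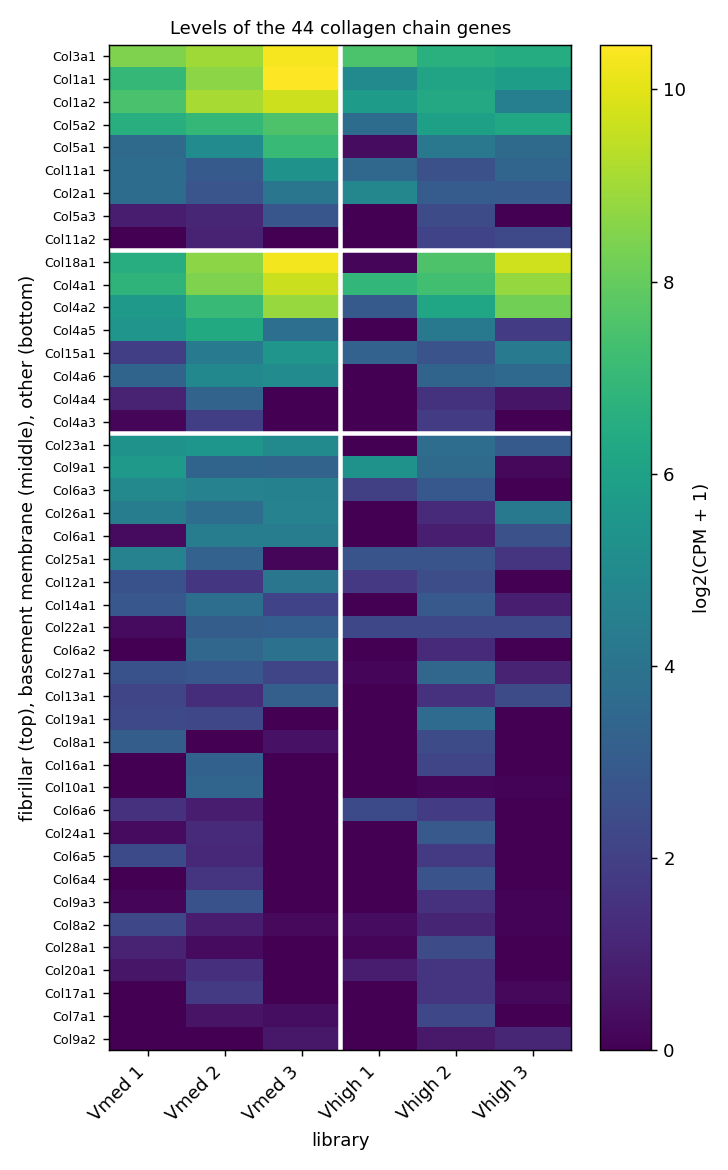
Levels of the 44 collagen genes in the 6 libraries as log2(CPM + 1), grouped by class and ordered by mean level. The abundant genes sit at the top of the fibrillar and basement membrane blocks, and most of the lower block is dark except in replicate 2 of both fractions.

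Genes that act on collagen were described with lists written from general knowledge, and 0 genes of these lists passed an adjusted p of 0.05 in the fit over all genes (lowest adjusted p = 0.66, edgeR). Of the genes for procollagen assembly in the endoplasmic reticulum, 18 of 22 tested had a log2 fold change below 0, with a median of -1.04. *Serpinh1*, the collagen chaperone HSP47, had 736, 1170 and 1393 CPM in Vmed and 321, 469 and 575 CPM in Vhigh, without overlap (log2 fold change -1.31, SE 0.44, unadjusted p = 0.015). *P4hb*, a subunit of the enzyme that hydroxylates collagen prolines, overlapped between fractions, with 666 to 1556 CPM in Vmed and 534 to 1130 CPM in Vhigh. Of the processing and cross-linking genes, 8 of 10 were below 0 (median -1.26). *Pcolce*, an enhancer of procollagen cleavage, had 312, 178 and 119 CPM in Vmed and 0.38, 82.6 and 4.07 CPM in Vhigh. *Bmp1*, which encodes a protease that cleaves procollagen, had 37.2 to 91.0 CPM in Vmed and 34.1 to 48.2 CPM in Vhigh.

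Of the genes for non-collagen parts of basement membranes, 14 of 16 tested were below 0 (median -1.12). *Sparc*, a collagen-binding matrix protein, had 1068, 2717 and 1393 CPM in Vmed and 538, 610 and 541 CPM in Vhigh, without overlap (log2 fold change -1.63, SE 0.45, unadjusted p = 0.0055). *Nid1*, which links laminin to type IV collagen, had 136 to 359 CPM in Vmed and 59.0 to 221 CPM in Vhigh. Among interstitial matrix partners, 15 of 17 were below 0 (median -1.61) and 6 were lower at an unadjusted p under 0.05, as were 1.17% of all genes tested. *Lum*, a proteoglycan that binds collagen fibers, had 428, 1341 and 487 CPM in Vmed and 64.5, 45.9 and 11.6 CPM in Vhigh (log2 fold change -4.20, SE 0.67, adjusted p = 0.66). *Fn1*, fibronectin, overlapped, with 323 to 1211 CPM in Vmed and 204 to 634 CPM in Vhigh.

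Of the collagen receptors, 5 of 9 genes tested were below 0, with a median of -0.02. Of these, 2 genes of immune cells and platelets, *Lair1* and *Gp6* (named after their values were seen), had an unadjusted p under 0.05 and separated fractions, lower in Vhigh, and 0 were higher. Over all genes tested, 1.17% were lower at that p and 4.71% were separated in that direction. Both genes passed the count filter through the Vmed libraries only, so their separation is no independent result. *Lair1* had 28.03, 7.71 and 2.16 CPM in Vmed and 0, 0.0921 and 0 CPM in Vhigh, and *Gp6* had 1.03, 8.80 and 12.2 CPM in Vmed and 0, 0 and 0.0831 CPM in Vhigh. *Itgb1*, the beta chain of the collagen-binding integrins, had 334, 399 and 902 CPM in Vmed and 543, 292 and 858 CPM in Vhigh, so that its values overlapped (log2 fold change 0.05, SE 0.58). Its partner gene *Itga1* did not exceed 46.1 CPM. All 11 genes tested for collagen degradation and its inhibitors were below 0 (median -1.08). The most abundant of them, *Ctsb* and *Ctsl*, encode lysosomal cathepsins that are high in macrophages. *Ctsb* had 2814, 2374 and 1065 CPM in Vmed and 1146, 317 and 146 CPM in Vhigh, and *Ctsl* had 346 to 586 CPM in Vmed and 85.1 to 325 CPM in Vhigh. Macrophage markers summed to 945 to 1569 CPM in Vmed and 88.5 to 293 CPM in Vhigh, with all 10 of that list present in each Vmed library, and hematopoietic markers to 352 to 604 CPM in Vmed and 1047 to 2012 CPM in Vhigh. The part of these markers in the matrix gene values was not tested.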

How the data were processed

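The authors aligned single 50-base reads from SMARTer-amplified RNA to GRCm38/mm10, and the submitters' processing notes name TopHat, Bowtie 1.1.2 and HTSeq. They deposited raw counts per gene for each library, without normalization. The annotation and the strand setting are not given in the sources used here, so reads of a gene and an antisense partner cannot be told apart. Lines for reads not assigned to a gene (55.0 to 77.2% of all lines) were left out of all totals. CPM are counts scaled to that gene total, and RPKM used exon-union lengths from GENCODE M21, which matched all 44 collagen genes. Detection limits cover counting error only, as reads carry no molecular identifiers. The SEs of the fold changes come from the quasi-likelihood fit and include variation between libraries.

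Fractions were compared over all genes with edgeR 4.0.16 in R 4.3.3 (filterByExpr, 12688 genes kept; TMM; quasi-likelihood test; Benjamini-Hochberg adjustment at 0.05), with the fraction as the only term. The study describes the libraries as independent experiments. The labels number them 1 to 3 in both fractions. Deviations from the fraction means correlated within same-numbered pairs (r = 0.21, 0.21 and 0.39 over all genes), so the numbers were taken to pair the libraries, and blocked values are given where they changed a call. Single values were compared by exact permutation over 20 arrangements, which do not use the pairing. Genes were named if among the 15 highest in mean CPM, if of types I, III, IV, XV or XVIII, if at an unadjusted p under 0.05, or if the fractions did not overlap, with the 2 most abundant genes of each other list. Members and lists were chosen with earlier results of these data known. Alternatives comprised other normalizations, filters and tests (DESeq2 1.42.0 and limma-voom 3.58.1 among them), removal of Rn45s, thinning, and each library left out. The procedure was also run on simulated data with less spread between libraries than in these data, whose biological coefficient of variation was 1.16. That run does not show how the procedure behaves at this spread.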

Additional observations from a re-analysis of the deposited data

How the results depend on the processing

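The number of genes past an adjusted p of 0.05 was 0 in the test reported. It was 37 without a filter on low counts (3 of them collagen genes), 21 in the likelihood ratio test (2 collagen genes), 51 in DESeq2's Wald test (3 collagen genes) and 74 in the likelihood ratio test with the replicate block (3 collagen genes), and 0 to 1 with each library left out in turn, where no collagen gene passed. The number of collagen genes with an unadjusted p under 0.05, which was 3, became 5 without the filter, 7 in DESeq2, 7 in limma-voom, 6 (quasi-likelihood) and 8 (likelihood ratio) with the replicate block, and 3 to 6 with a library left out. The median log2 fold change of the collagen genes tested was -2.31 with limma-voom and ranged from -2.29 to -0.89 over the libraries left out, being lowest without Vhigh replicate 2. Leaving out both libraries of replicate 1, an alternative chosen after seeing the data, gave 5 collagen genes with an unadjusted p under 0.05. Between 26 and 34 of the 29 to 44 collagen genes tested were below 0 under the 19 alternatives, against 27 of 31, and 3 to 12 were above 0, with 12 of 41 above 0 without Vmed replicate 3 and 11 of 41 without Vhigh replicate 3. With each library left out in turn, log2 fold changes of Col4a1 (-1.56 to 0.11), Col4a2 (-2.60 to 0.49), Col15a1 (-1.53 to 0.070) and Col18a1 (-2.77 to 0.48) reversed without Vmed replicate 3, that of Col4a4 (-3.68 to 0.39) without Vmed replicate 2, and that of Col9a1 (-2.21 to 0.93) without Vmed replicate 1 and, at 0.16, without Vhigh replicate 3. That of Col18a1 was -3.18 with limma-voom and -2.37 with the replicate block. With the same block, those of Col4a1, Col4a2 and Col15a1 were -0.65, -1.47 and -0.60. The cause of these changes was not tested. Class sums kept their direction under all 12 alternatives, with log2 differences of -3.03 to -1.86 for fibrillar, -1.91 to -0.13 for basement membrane and -1.89 to -1.17 for other collagens. Collagen genes held 0.0511 to 0.663% of the counts, and genes under 3 counts in a library are below the limit of detection there.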
